A study of Sus scrofa with 4 samples.

Results

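The cells described here are pancreatic duct cells of the pig that held few transcripts of an early response program. They were chosen by their own transcript counts in 2 single-cell libraries of primary pancreas. A cell barcode was kept if it had at least 2000 UMIs (unique molecular identifiers, each marking 1 captured RNA molecule) and at most 9000 features. SLC4A4 had to make up at least 0.5% of its UMIs and INS less than 5%. It also had to have 0 UMIs of LGR5 and fewer than 5 UMIs in total of 5 program genes, EREG, OSGIN1, RND1, DUSP10 and GDNF. This gave 1612 cells of the 32580 barcodes of the series, 740 from primary pancreas 1 and 872 from primary pancreas 2, called quiet duct cells below. Duct cells with 5 or more program UMIs and no LGR5 UMI are called program duct cells, of which there were 1706.

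Primary pancreas 1 came from a wild type pig and primary pancreas 2 from a pig with an INS-eGFP transgene, in which the porcine insulin promoter drives eGFP in beta cells. Both were late postnatal (weaned and not yet of reproductive age), of German landrace background and given no treatment. This rests on reading replicate 1 and 2 in the titles as samples 1 and 2 in the methods of the study. The organs were dissociated with collagenase V and TrypLE on different days, and live cells (7-AAD negative) were sorted. For the first pancreas ducts were picked by hand. The second library pooled cells that bound the duct lectin DBA (Dolichos biflorus agglutinin), INS-eGFP cells and cells of the whole suspension. Genotype, day and way of enrichment therefore cannot be told apart in any difference between the primary libraries. The comparison group was 2 libraries of porcine pancreatic ductal organoids (PPDO), grown in Cultrex with WNT3a, R-spondin, Noggin and growth factors. The study describes the lines as from 1 late postnatal and 1 adult pig and as taken at different passages, although its methods name both samples by ages within its late postnatal range. The labels give neither which line made which library nor the genotype of its pig. Each group had 2 libraries, so p-values measure the spread between these libraries only.

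Pancreatic ducts carry enzyme-rich juice out of the gland and add fluid and bicarbonate to it. Bicarbonate enters the duct cell through the sodium bicarbonate cotransporter SLC4A4 at the basolateral membrane and leaves at the apical membrane by way of the chloride channel CFTR and SLC26 family exchangers. The hormone secretin switches this on through its receptor SCTR and cyclic AMP. Enzymatic dissociation is known to induce immediate early genes such as FOS and ATF3 within the time of cell isolation in many tissues.

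The 4 libraries held between 6999 and 9853 barcodes and between 87043513 and 366263520 UMIs. Any pair of libraries shared 10 to 23 barcode sequences. Quiet duct cells had a median of 11937 UMIs in primary pancreas 1 and 19044.5 UMIs in primary pancreas 2. Their mitochondrial share, over 13 genes, had a median of 0.966% and 0.504% of UMIs. The doublet caller Scrublet marked 16 and 17 of them. Summed over cells, the quiet duct cells gave 9093267 and 16839475 UMIs, against 301494334 and 263174788 UMIs in the PPDO sums. Levels below are CPM, the UMIs of a gene per 1e+06 UMIs of such a sum. The libraries were read at 3' ends, so UMIs do not scale with transcript length.

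Free RNA gives UMIs in cells that do not make a transcript, and the level of this background was read from barcodes with at least 2 UMIs of PTPRC (CD45, a surface protein of blood cells), SLC4A4 under 0.1% and INS under 5%. There were 677 such barcodes in primary pancreas 1 and 152 in primary pancreas 2, with medians of 7861 and 9550 UMIs. For shares of cells with a UMI, each cell was thinned to 5000 UMIs. This left out 151 and 47 shallower quiet duct cells and kept 589 and 825.

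CFTR and SCTR, duct genes outside the rule, were found in most of these cells. Quiet duct cells were chosen for a high share of SLC4A4 and PTPRC barcodes for a low share. The contrast in genes that go with SLC4A4 is thus partly set by the choice of cells, and the size of that part was not tested. The genes named were also listed with earlier results of these data known, so the values are a description. CFTR was found in 95.6% of thinned quiet duct cells of primary pancreas 1 and in 92.5% in primary pancreas 2, against 0.982% and 0.826% of PTPRC barcodes. SCTR was found in 93.2% and 95.9%, against 1.38% and 1.65%. PPARGC1A, a coactivator of mitochondrial gene expression, was found in 86.6% and 91.0%, and LRP2, the endocytic receptor megalin, in 83.2% and 83.5%, each in under 2% of PTPRC barcodes. KIT, the receptor of stem cell factor, was found in 95.8% and 99.5% of quiet duct cells but also in 21.8% and 44.6% of PTPRC barcodes. All 14 of the 15 duct markers that had a match reached 10 CPM in both libraries, and summed to 30562 and 36470 CPM. Of these sums SLC4A4, a gene of the rule, gave 21155 and 25927 CPM.

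SLC4A4 itself, used to choose the cells, had a median share of 1.94% of UMIs in primary pancreas 1 and 2.49% in primary pancreas 2. The 10th and 90th percentiles were 1.02% and 3.04% in the first, and 1.54% and 3.52% in the second, so most cells lay well inside the limit. Just inside it, at 0.5% to 0.6%, there were 17 and 5 cells. Just outside, at 0.4% to 0.5%, there were 12 and 6 barcodes. At the program limit, 77 and 140 quiet duct cells had 4 program UMIs, and 65 and 98 program duct cells had 5.

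Markers of other cell types were low in most lists. T and NK cell markers summed to 25.2 and 21.1 CPM and myeloid markers to 34.8 and 7.72 CPM in quiet duct cells. Acinar markers summed to 736 and 879 CPM, led by CLPS (colipase) and PRSS2 (a trypsinogen). CLPS was seen in 56.9% and 57.7% of thinned quiet duct cells but also in 35.4% and 26.4% of PTPRC barcodes, and the acinar list summed to 833 and 352 CPM in the latter. The acinar sum of quiet duct cells thus stood above that of PTPRC barcodes only in primary pancreas 2. CTRL, an acinar enzyme gene, was at 0 UMIs in both libraries. INS was found in 50.9% of quiet duct cells against 53.0% of PTPRC barcodes in primary pancreas 1 and in all cells of both kinds in primary pancreas 2, so it is not read as expression. In primary pancreas 2 INS was over 1% of UMIs in 167 of 872 quiet duct cells, of which Scrublet marked 11. Beta cell markers summed to 248 and 7719 CPM against 162 and 10202 CPM in PTPRC barcodes, and those of other endocrine cells to 55.3 and 785 CPM against 240 and 714 CPM. Smooth muscle and pericyte markers summed to 46.4 CPM or less in each library and Schwann cell markers to 26.9 and 30.9 CPM.

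The genes that set quiet duct cells furthest apart from all primary barcodes outside the duct gate are given as a description, since the gate itself chose the cells. By the smaller of both libraries' ratios the 15 leading genes were AQP9, CFTR, DEFB115, EFHC2, KNG1, LRP2, MMD, ONECUT1, PKHD1, PPARGC1A, ROS1, SCTR, SLC4A4, SPON1 and VEPH1. PKHD1, which encodes the ciliary protein fibrocystin, had 2274 and 2464 CPM in quiet duct cells and 71.4 and 34.3 CPM in the other barcodes. KNG1, the precursor of bradykinin, had 660 and 782 CPM against 9.21 and 10.7 CPM. AQP9, a channel for water and glycerol, had 426 and 511 CPM against 3.78 and 6.58 CPM. Of 8354 named genes with at least 10 CPM in quiet duct cells, 1005 genes were over 2-fold above the other barcodes in both libraries, where the median log2 ratio over all these genes was 0.211 and 0.894 (0.198 and 0.324 against barcodes with low INS).

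Of 29 genes of bicarbonate and fluid secretion, 17 reached 10 CPM in both libraries. CFTR had 1082 and 777 CPM. KCNQ1, a potassium channel, had 715 and 610 CPM, and its partner subunit KCNE3 had 527 and 615 CPM. The sodium pump subunit gene ATP1B1 had 1063 and 1107 CPM. AHCYL1, which encodes IRBIT, an activator of SLC4A4 and CFTR, had 1031 and 1162 CPM and was found in 98.6% and 99.8% of thinned cells. The carbonic anhydrase CA12 had 217 and 234 CPM and CA2 had 85.0 and 79.6 CPM.

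Several genes of the same list were hardly detected in these cells. SLC26A6 and SLC26A3, which encode apical chloride and bicarbonate exchangers, were at 0.990 and 0.356 CPM and at 0.990 and 0.594 CPM. ANO1, a calcium-activated chloride channel, was at 1.43 and 0.475 CPM, below the 2.39 CPM of PTPRC barcodes in primary pancreas 1. The water channels AQP1 and AQP5 were at 1.87 and 0.238 CPM and at 0.330 and 0.356 CPM. Of AQP1, AQP5 and AQP9, AQP9 thus had by far the most UMIs in quiet duct cells.

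Transcription factor genes known from the duct were found in both libraries at like levels. SOX9 had 322 and 344 CPM, and ONECUT1 (HNF6) 606 and 763 CPM. GLIS3, whose loss causes neonatal diabetes with polycystic kidneys, had 1441 and 1814 CPM. PTF1A, which specifies acinar cells, was at 0.110 and 0.297 CPM. Keratin and junction genes were also present, with KRT7 at 434 and 592 CPM, EPCAM at 767 and 695 CPM and CLDN10, a claudin of ion-transporting epithelia, at 1012 and 1291 CPM.

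**Figure D1:**
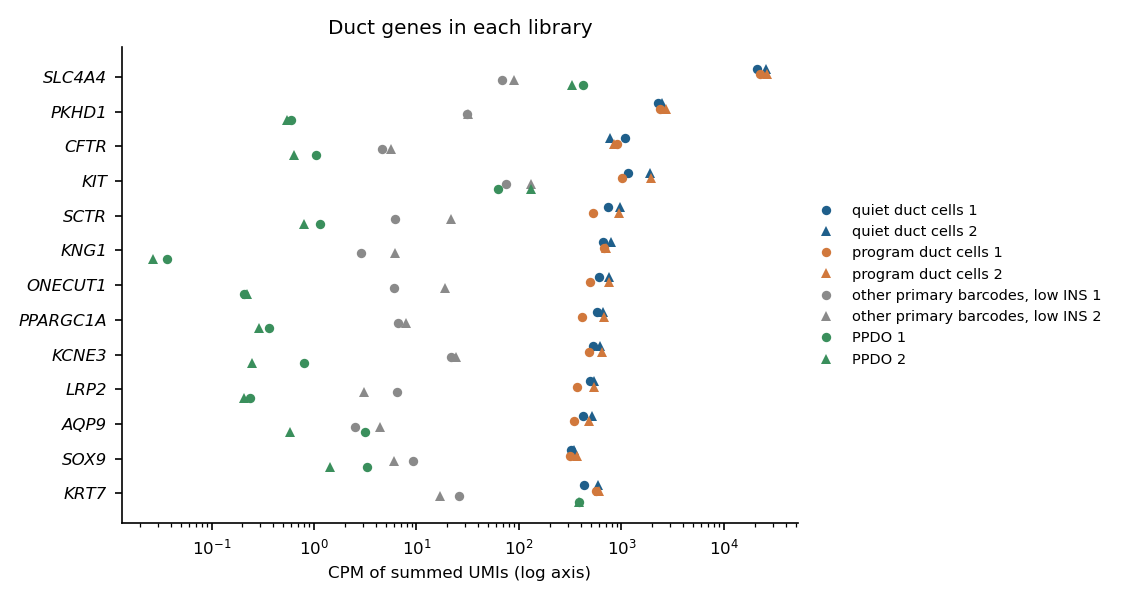
CPM of summed UMIs on a log axis for 13 duct genes in quiet duct cells, program duct cells, other primary barcodes with low INS and SLC4A4, and PPDO, with a point for each library (circles, library 1; triangles, library 2). Quiet and program duct cells lie together for each gene, and the PPDO points lie lower for all 13 genes, by little for KRT7 (388 and 383 CPM against 434 and 592 CPM in quiet duct cells).

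The number of program UMIs divided the duct cells very differently in both pancreata. Quiet cells made up 34.3% of all duct barcodes in primary pancreas 1 (95% exact Clopper-Pearson interval 32.3% to 36.3%) and 72.7% in primary pancreas 2 (70.0% to 75.2%). Of all barcodes that passed the depth limits they were 13.2% (12.3% to 14.1%) and 15.6% (14.6% to 16.6%). The intervals cover counting error only, and the way of enrichment differed between the libraries.

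Because the rule counts program UMIs without regard to depth, shallower cells fall below its limit more readily. The median depth of program duct cells was 22100 UMIs in primary pancreas 1 and 24641 UMIs in primary pancreas 2, above that of quiet duct cells in both. With every duct cell thinned to 5000 UMIs, 777 of 1972 cells (39.4%) still had 5 or more program UMIs in primary pancreas 1 but only 7 of 1132 (0.618%) in primary pancreas 2. Cells with 0 program UMIs then made up 19.0% and 50.3%. Under this thinned count the quiet share of duct barcodes was 60.0% in primary pancreas 1 and 97.6% in primary pancreas 2.

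Before thinning, the duct cells of primary pancreas 1 had a median of 11 program UMIs and up to 201, and 804 cells (37.6%) had over 20. In primary pancreas 2 the median was 3 and the highest value 21, in the only cell above 20. Per thinned cell the mean was 0.655 and 0.542 program UMIs in quiet and 6.25 and 1.52 in program duct cells, a description of the counts that divided them. The name quiet marks a low and not an absent program, as EREG, an EGF family ligand, had 58.3 and 62.8 CPM in quiet duct cells against 3.98 and 7.89 CPM in PTPRC barcodes.

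**Figure D2:**
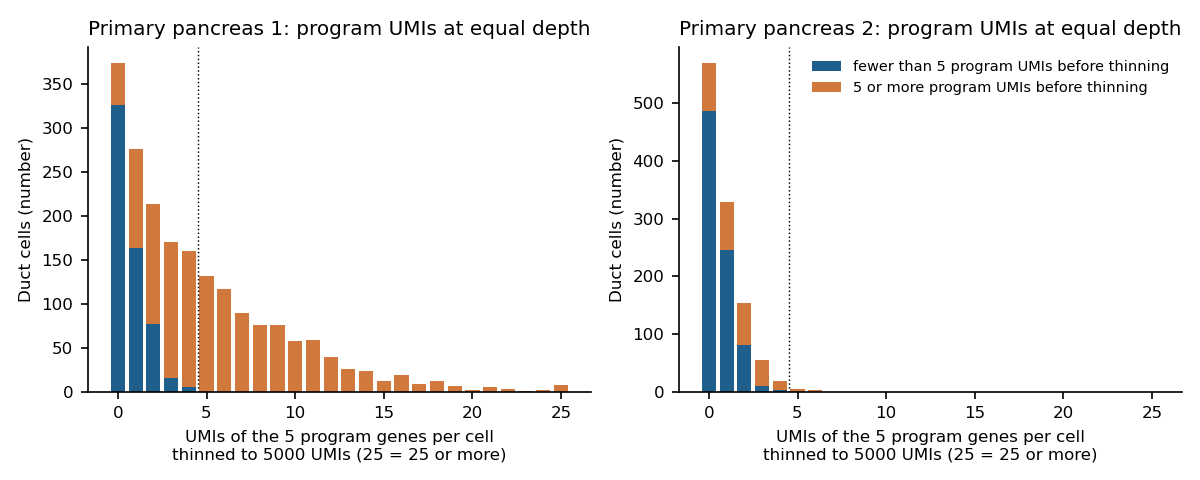
Number of duct cells by their UMIs of the 5 program genes after thinning each cell to 5000 UMIs, in primary pancreas 1 (left) and 2 (right), coloured by the count before thinning. The dotted line marks the limit of 5 UMIs, above which lie 777 of 1972 cells on the left and 7 of 1132 on the right, with no gap between the groups.

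Genes outside the rule also separated program from quiet duct cells in primary pancreas 1, and much less so in primary pancreas 2. This is a description, since cells were divided by genes of the same program. Ribosomal protein genes had a median of 3.32% of UMIs in quiet and 5.25% in program cells of primary pancreas 1, and 5.78% and 5.38% in primary pancreas 2. The mitochondrial share was 0.966% and 0.722% in the first and 0.504% and 0.469% in the second, and the median number of features 3921 and 5587, and 5594.5 and 6239. Their part in the difference was not tested. Immediate early genes, which are transcribed within minutes of a stimulus, had a median log2 ratio of program over quiet of 2.15 in primary pancreas 1, with 22 of 29 genes above 1. In primary pancreas 2 the median was 0.135 and 0 of 29 genes were above 1. Over the 8354 named genes the medians were -0.0253 and 0.00152, and 2.65% and 0.0479% of genes had a log2 ratio above 1. The log2 ratios have 5 CPM added on each side.

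FOS, a subunit of the AP-1 transcription factor, had 324 CPM in quiet and 2474 CPM in program duct cells of primary pancreas 1, and 166 and 188 CPM in primary pancreas 2. ATF3, a stress-induced transcription factor, had 225 and 1612 CPM in the first and 118 and 157 CPM in the second. CXCL2, a neutrophil attractant, went from 84.7 to 1030 CPM in the first and from 29.9 to 36.1 CPM in the second. The quiet cells of primary pancreas 1 thus stood above those of primary pancreas 2 for FOS, ATF3 and CXCL2, and below the program cells of their own library.

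Against other barcodes of their own library, early genes were lower in quiet duct cells in primary pancreas 1, while in primary pancreas 2 the direction depended on the barcodes compared. FOS was at 2532 CPM in the barcodes of primary pancreas 1 outside the duct gate and at 2514 CPM in its PTPRC barcodes, against 324 CPM in quiet duct cells. JUNB, another AP-1 subunit, had 841 and 707 CPM in these groups against 84.1 CPM. In primary pancreas 2 FOS was at 50.8 CPM outside the duct gate and at 1032 CPM in PTPRC barcodes, against 166 CPM in quiet duct cells. Summed over 29 immediate early genes, quiet duct cells had 1656 and 1022 CPM, barcodes outside the duct gate 8596 and 358 CPM and PTPRC barcodes 9882 and 4326 CPM. In primary pancreas 2 the barcodes outside the duct gate had a median of 23.9% of UMIs from INS, and those with INS under 5% and SLC4A4 under 0.1% had 1932 CPM (8863 CPM in primary pancreas 1).

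By the smaller of both libraries' ratios the 12 genes highest in program over quiet cells were ATF3, BIRC2, CPA1, CTRC, FOSB, IFRD1, JUNB, PRSS2, SP1, TBC1D9, TES and TSC22D2. Of these CPA1, CTRC and PRSS2 encode acinar enzymes. CPA1 had 64.1 and 63.1 CPM in quiet and 98.6 and 138 CPM in program duct cells, with 91.8 and 30.4 CPM in PTPRC barcodes, and the part of free RNA in this was not tested. Without the 10 quiet duct cells with the most CPA1 UMIs it was at 56.1 and 34.7 CPM.

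Differences of over 2-fold towards quiet cells were few. A log2 ratio of program over quiet under -1 was found for 10 of 8354 genes in primary pancreas 1 and 1 gene in primary pancreas 2. The leading genes by the rule included AKAP7, CYTB, GAPVD1, HDAC9, MAN2A2, MRPL9, SAP130, SRGAP1, SRRM4, SWT1 and WASHC3, and these differed little. CYTB, a mitochondrial gene, had 174 and 102 CPM in quiet and 139 and 84.1 CPM in program cells.

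Most duct identity genes moved little between quiet and program cells. The median log2 ratio over 29 genes of bicarbonate and fluid secretion was -0.0702 in primary pancreas 1 and -0.00899 in primary pancreas 2. None was above 1 in either library. These include SLC4A4, a gene of the rule, and only 17 of the 29 reached 10 CPM in both libraries. The 5 CPM added keeps the ratios of the lowest genes small. Over 21 transcription factors the median was 0.0950 and 0.0252. Of these ELF3 and KLF5, epithelial factors, were above a log2 ratio of 1 in primary pancreas 1. They had 48.2 CPM in quiet against 173 CPM in program cells and 31.1 against 96.1 CPM. Of 19 genes of the apical membrane, endocytosis and cilium, 2 were above a log2 ratio of 1 in primary pancreas 1. In primary pancreas 2 there were 0, and the medians were 0.0273 and -0.00514. Among junction genes CLDN4 went from 181 to 615 CPM in primary pancreas 1 and from 199 to 186 CPM in primary pancreas 2. SCTR, PPARGC1A and LRP2 were lower in program cells of primary pancreas 1, at 522, 413 and 372 CPM against 744, 573 and 497 CPM, and near equal in primary pancreas 2, at 947, 675 and 534 CPM against 960, 665 and 536 CPM.

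**Figure D3:**
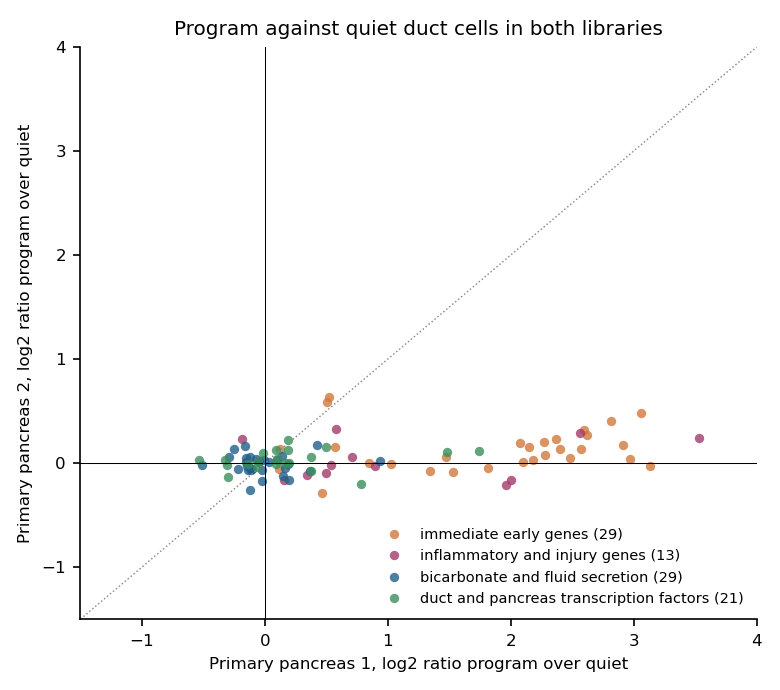
Log2 ratio of CPM in program over quiet duct cells (5 CPM added) in primary pancreas 1 (x) and primary pancreas 2 (y), with a point for each gene of 4 lists. Immediate early genes spread to the right along the x axis (median 2.15) and stay near 0 on the y axis (median 0.135), while secretion genes and most transcription factors sit near 0 on both.

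Between the libraries, the quiet duct cells had like profiles. The log2 ratio of primary pancreas 1 over 2 lay within 1 for 98.3% of the 8354 genes, with 81 genes above and 57 below and a median of -0.169. The genes with the largest ratios fell into kinds that differ in how the UMIs were spread over cells and over cell types.

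A first kind differed in quiet and program duct cells alike and was low in PTPRC barcodes. CXCL14, an epithelial chemokine, had 338 CPM in primary pancreas 1 and 15.3 CPM in primary pancreas 2, with 379 and 17.3 CPM in program duct cells and 24.3 and 1.69 CPM in PTPRC barcodes. It was found in 46.3% and 5.21% of thinned quiet duct cells, and 60 of 740 cells held 50% of its UMIs in the first library. ADCY5, an adenylyl cyclase, named for its place among secretion genes, had 93.1 and 6.12 CPM. SLIT3, a secreted guidance cue, had 469 and 197 CPM. In the other direction NTN4 (netrin 4) had 141 and 345 CPM and PALMD, a membrane-associated protein, had 137 and 384 CPM.

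A second kind differed between the libraries in every group of barcodes. LRRC43 had 718 and 129 CPM in quiet duct cells, 539 and 86.9 CPM outside the duct gate and 372 and 89.1 CPM in PTPRC barcodes. FAM13C and CACNA1E were likewise higher in primary pancreas 1 in every group, CACNA1E with 196 and 28.7 CPM in quiet duct cells. EIF3F was higher in primary pancreas 2, with 61.7 and 164 CPM in quiet duct cells, 49.3 and 103 CPM outside the duct gate and 65.9 and 309 CPM in PTPRC barcodes.

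The last kind either had most UMIs in few cells or differed as much in PTPRC barcodes. MGP (matrix Gla protein, made by stromal cells) had 149 and 0.356 CPM, but 2 cells held 50% of its UMIs and it fell to 4.18 CPM without the 10 cells that held most. CST3 had 145 and 39.5 CPM, with 51.8% of its UMIs in 1 cell. GCG (glucagon) had 9.90 and 519 CPM, with 93.7% of the UMIs of primary pancreas 2 in 1 cell, which Scrublet did not mark. INS had 164 and 7594 CPM against 162 and 10182 CPM in PTPRC barcodes, and TTR 4.29 and 112 CPM against 4.14 and 309 CPM. The part of free RNA in these was not tested. Markers of fibroblasts moved with these genes, all 6 of 6 under 10 CPM in at least 1 library and their sum at 150 CPM in primary pancreas 1 and 2.49 CPM in primary pancreas 2. Markers of endothelial cells summed to 206 and 91.9 CPM, and their part in the other differences was not tested.

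Within each library the quiet duct cells varied most, beyond counting noise, in a small set of genes. The Fano factor (variance over mean of UMIs per cell thinned to 5000) had a median of 1.20 and 1.14 over 3825 named genes and a 95th percentile of 2.14 and 1.87. The 12 highest genes by the smaller of both libraries' values included ADAMTS18, AUTS2, CFD, COMMD6, MMP7, MT1X, ND5, PBX3, SLC4A4 and SLIT2. SLC4A4 is a gene of the rule and by far more abundant than the others, so its Fano factor is not set beside theirs. The Fano factor was 5.66 and 6.05 for the metalloprotease gene ADAMTS18. ADAMTS18 ranged from 1 to 14 UMIs per thinned cell between the 10th and 90th percentiles in primary pancreas 1 and from 0 to 13.6 in primary pancreas 2, with a median of 4 in both. SLIT2, a secreted guidance cue, was found in 26.1% and 29.1% of thinned cells, and 33 of 740 and 54 of 872 cells held 50% of its UMIs.

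A gradient across quiet duct cells set KIT and PBX3 against KNG1. It was the second principal component of the thinned cells of primary pancreas 2, chosen after the data were seen, and it carried 0.443% of the variance over 5894 genes in 810 cells. The 15 genes at its KNG1 end were KNG1, CYP3A29, SELENOP, ATP8A1, AKR1C2, FRY, SESN1, FZD5, NUPR1, KCNMA1, COL4A3, TNFRSF11A, FOXO3, AP1AR and CAT. CAT encodes catalase, SELENOP selenoprotein P and CYP3A29 a cytochrome P450. The 15 genes at its KIT end included PBX3, MMD, KIT, ADAMTS18, COMMD6, UTRN, SPON1, AUTS2, GMNN, APP, PCDH17, DEFB115, LHFPL2 and ADAMTS9. Genes of the KIT end had a mean pairwise Pearson r of 0.253 in primary pancreas 1 and 0.248 in primary pancreas 2. Those of the KNG1 end had only 0.065 and 0.093, so the KNG1 end was a loose group. Between the ends the mean r was -0.078 and -0.139.

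The direction of these genes was also read in primary pancreas 1. That library did not enter the component, but genes needed a mean of at least 0.1 UMIs per thinned cell in both libraries. How often other genes keep their direction in this way was not tested. Each gene was compared between the 25% of cells with the highest and the lowest scores, with that gene left out of the score. All 30 of these genes had the direction of primary pancreas 2 in the 575 cells of primary pancreas 1, and also in the program duct cells of each library (1349 and 300 cells). KIT had a mean of 3.24 UMIs per thinned cell at the KNG1 end and 8.51 at the KIT end in primary pancreas 1, and 6.04 and 11.9 in primary pancreas 2. KNG1 had 4.02 and 2.65 UMIs in primary pancreas 1 and 6.12 and 2.73 UMIs in primary pancreas 2.

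Across cells the summed UMIs of both gene groups had a Pearson r of -0.360 in 575 cells and -0.580 in 810 cells, a description of cells that share a library and a fixed total of UMIs. Depth before thinning moved with the gradient, as the median was 11660 UMIs at the KNG1 end and 15190 UMIs at the KIT end in primary pancreas 1, and 17700 and 20530 UMIs in primary pancreas 2. The part of depth in the gradient was not tested. LRP2 lay towards the KIT end, with a log2 ratio of -0.99 and -0.57. PPARGC1A (-0.51 and -0.17), CFTR (-0.19 and -0.35) and PKHD1 (-0.15 and -0.37) also lay on that side in both libraries. SOX9 had 0.14 and -0.04, and ONECUT1 0.15 and 0.02.

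**Figure D4:**
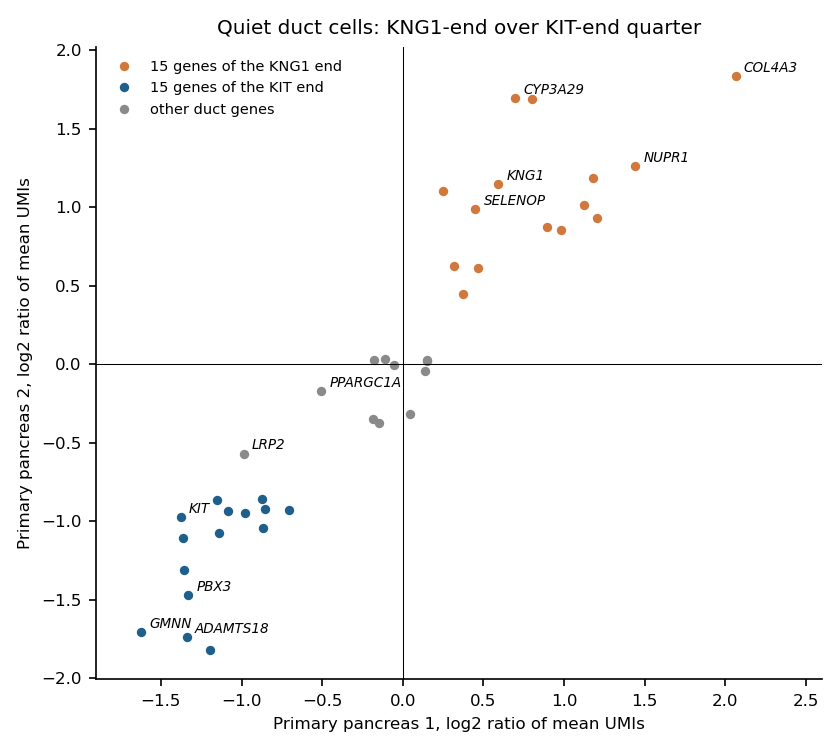
Log2 ratio of mean UMIs per thinned quiet duct cell in the 25% of cells at the KNG1 end over the 25% at the KIT end, in primary pancreas 1 (x) and 2 (y), with a point for each gene. All 15 KNG1-end genes lie in the upper right and all 15 KIT-end genes in the lower left, and LRP2, of the other duct genes, lies at -0.99 and -0.57.

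The comparison with PPDO set all PPDO barcodes within the depth limits (8995 and 7457) against quiet duct cells, whose early response was low. PPDO had no gate on duct genes, and the study describes mature duct cells as a minority there. Cell composition and change per cell therefore cannot be told apart in the fold changes. The study states that most cells of the sequenced lines had by then turned to a less mature duct state. For early passage organoids it reports CFTR and SOX9 protein and lumen growth after secretin. The fold changes here are for the sequenced passages only. Over all 22990 genes tested with edgeR's quasi-likelihood test on the summed UMIs, 10851 genes (47.2%) passed an adjusted p (Benjamini-Hochberg) of 0.05, 5913 (25.7%) higher and 4938 (21.5%) lower in PPDO. With library totals in place of TMM factors 3472 genes were higher and 7392 lower, as the log2 fold changes moved by a median of -0.518. Fold changes below are PPDO over quiet duct cells with TMM, and counts under totals follow in the same sentence where they differ. With TMM, list counts stand beside 25.7% of all genes higher and 21.5% lower. With totals they stand beside 3472 genes higher and 7392 lower of 22990. Without genes over 2 times higher in barcodes outside the duct gate they stand beside 4410 higher and 3886 lower of 15004. Group and culture coincide and cannot be told apart. The cells were picked for SLC4A4, and the part of that choice in the size of the difference in duct genes was not tested. With SLC4A4 at 0.25% or at 1% of UMIs the log2 fold change of CFTR was -9.62 and -9.65. These limits cannot show that part, since PPDO had no SLC4A4 limit and the cells stayed mostly the same. They kept 784 and 885 cells at 0.25% and 669 and 841 at 1%, against 740 and 872.

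Genes of bicarbonate and fluid secretion were mostly lower in PPDO. Of 27 genes tested 16 were lower and 8 higher, against 17 and 6 with library totals, with a median log2 fold change of -1.67, beside 21.5% of all genes lower and a median over all genes of 0.0820. CFTR had 1082 and 777 CPM in quiet duct cells and 1.04 and 0.635 CPM in PPDO, with a log2 fold change of -9.63 (SE 0.43, adjusted p = 0.00019). SCTR had 744 and 960 CPM against 1.14 and 0.790 CPM, a log2 fold change of -9.27 (SE 0.26). The groups did not overlap for either gene.

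KCNE3 was lower by a log2 fold change of -9.58, AHCYL1 by -4.10, CA2 by -3.31, KCNQ1 by -2.68 and ATP1B1 by -2.41. Among the genes higher in PPDO were some hardly detected in quiet duct cells. ANO1 had 76.6 and 71.2 CPM in PPDO against 1.43 and 0.475 CPM (log2 fold change 6.97, SE 0.44). SLC26A6 had 31.4 and 35.9 CPM against 0.990 and 0.356 CPM (6.33, SE 0.45). KCNN4, a calcium-activated potassium channel, was higher by a log2 fold change of 4.68. CA12, which quiet duct cells held at 217 and 234 CPM, was 0.79 higher, a call lost with library totals (0.28). SLC4A4, which chose the cells, had 418 and 327 CPM in PPDO.

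Transcription factor genes of the duct were lower as well, 14 of 20 tested, with 3 higher (with totals 15 and 2) and a median log2 fold change of -1.87. Leaving out 1 library at a time gave 12 or 13 lower and 1 or 2 higher. ONECUT1 was at 0.209 and 0.220 CPM in PPDO (log2 fold change -11.12, SE 0.19), and PROX1, a factor of early pancreas and liver, at 0.348 and 0.141 CPM (-9.83, SE 0.47). SOX9 had 3.29 and 1.44 CPM against 322 and 344 CPM (-6.64, SE 0.45). KLF5, which acts in basal and gut epithelia, was higher, with 469 and 543 CPM against 31.1 and 38.2 CPM (4.38, SE 0.17). EHF did not pass, with a log2 fold change of 0.13 (SE 0.13) that turned to -0.38 with library totals.

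Of 19 genes of the apical membrane, endocytosis and cilium 8 were lower and 3 higher (10 and 2 with totals). Those lower were led by RAB17, a GTPase of polarized epithelia (log2 fold change -12.44), PKHD1 (-11.51) and LRP2 (-10.67). Of 18 junction and keratin genes 11 were lower and 3 higher (12 and 3 with totals). Over all genes 21.5% were lower and 25.7% higher. Without genes over 2 times higher in barcodes outside the duct gate, 8 of 18 apical genes were lower and 5 higher. In that setting 11 of 16 junction and keratin genes were lower and 1 higher. Of all 15004 genes then tested, 3886 were lower and 4410 higher. CLDN10 was lower (-7.59), while CLDN1 (8.50) and KRT23 (6.69) were higher, CLDN1 with 133 and 122 CPM against 0.660 and 0.416 CPM. KRT7 did not pass, with 388 and 383 CPM against 434 and 592 CPM and a log2 fold change of 0.11 (SE 0.14), which turned to -0.41 with totals. Over the 13 duct markers tested, 11 were lower and 0 higher under both scalings.

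PPARGC1A was lower in PPDO by a log2 fold change of -10.38 (SE 0.19), with 573 and 665 CPM in quiet duct cells and 0.362 and 0.289 CPM in PPDO. ESRRB, a nuclear receptor of the family it coactivates, was lower by -5.25. Of the 12 genes of its list tested 5 were lower and 2 higher (8 and 2 with totals). Over all genes 21.5% were lower and 25.7% higher. Oxidative phosphorylation and citrate cycle genes had no direction that held under both scalings. Of 23 genes tested 10 were higher and 5 lower, but 2 and 8 with totals, and 4 higher without PPDO 1 and 3 without PPDO 2.

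Glycolysis genes were higher in PPDO, 12 of 16 tested with 0 lower (11 and 1 with totals) and a median log2 fold change of 1.99. Over all genes 25.7% were higher. GAPDH had 8478 and 9554 CPM in PPDO and 524 and 718 CPM in quiet duct cells (log2 fold change 4.38, SE 0.24). LDHA, which makes lactate, had 453 and 504 CPM against 27.2 and 27.4 CPM (4.65, SE 0.16). HK2, a hexokinase, was higher by 7.24. ALDOA had 56.4 and 61.5 CPM against 88.1 and 103 CPM and did not pass with TMM, but was lower with totals (-0.70).

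Of 12 genes of the KIT pathway 4 were higher and 5 lower (1 and 6 with totals, 2 and 5 without PPDO 1 or without PPDO 2). Over all genes 25.7% were higher and 21.5% lower. KIT had 62.7 and 131 CPM in PPDO against 1159 and 1911 CPM (log2 fold change -3.45, SE 0.45). Its ligand KITLG had 176 and 162 CPM against 37.2 and 28.3 CPM (2.87, SE 0.22). Of 9 receptors and ligands of the EGF family tested, 4 were higher, 3 lower and 2 did not pass (4 higher and 4 lower with totals). These counts stand beside the same shares of all genes. ERBB4 was lower (-7.71) and ERBB3 higher (2.57). Among ligands AREG was higher (7.41), with 284 and 322 CPM against 2.09 and 2.91 CPM, and BTC lower (-4.76). EREG, a gene of the rule, had 406 and 356 CPM in PPDO. Of the 10 genes of this family found, 4 were above a log2 ratio of 1 in program over quiet cells of primary pancreas 1. In primary pancreas 2 it was 1 gene, and EREG is among the 10. The part of the rule in the counts of this family against PPDO was not tested.

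Of 14 WNT genes 7 were higher and 4 lower (6 and 5 with totals), beside 25.7% and 21.5% of all genes. AXIN2, a target of the pathway, was higher (1.57), LGR6, a receptor of R-spondin, was higher (8.92), and the receptors ROR1 (-9.86) and FZD5 (-5.34) were lower. Of 13 NOTCH genes 6 were higher and 3 lower (5 and 4 with totals), the latter near the 21.5% of all genes. Without genes over 2 times higher in barcodes outside the duct gate, 1 was higher and 3 lower of 5 NOTCH genes, and 2 were higher and 3 lower of 6 EGF family genes. NOTCH2 was lower (-2.87) and the ligand JAG2 higher (5.66). Of 10 proliferation genes 9 were higher and 0 lower (7 and 0 with totals), TOP2A with 22.1 and 36.5 CPM in PPDO against 2.20 and 0.238 CPM.

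In primary pancreas 1 immediate early genes moved with the program that the rule kept low, so their counts against PPDO are given as a description. Of 29 immediate early genes tested 13 were higher in PPDO and 2 lower (12 and 3 with totals), with a median log2 fold change of 1.36. The count depended on primary pancreas 1: without it 22 were higher and 2 lower, and without primary pancreas 2 it was 15 and 5. Leaving out PPDO 1 or PPDO 2 gave 10 higher, and a stricter rule of fewer than 2 program UMIs gave 18 higher and 2 lower. With genes over 2 times higher in barcodes outside the duct gate removed, 3 of the 29 were tested, 0 of them higher and 1 lower. MYC had 44.0 and 46.6 CPM in PPDO against 1.32 and 0.178 CPM (6.71, SE 0.67), and IER3, an early response gene against apoptosis, 221 and 277 CPM against 18.8 and 19.1 CPM (4.23, SE 0.19). FOS had 556 and 521 CPM in PPDO against 324 and 166 CPM. SOCS3 (-2.18) and CCN2 (-1.30) were lower. Of 12 heat shock genes 8 were higher (4 with totals, 5 without PPDO 1 or without PPDO 2) and 0 lower. Of 13 inflammatory and injury genes 4 were higher and 3 lower (3 and 3 with totals), shares near the 25.7% and 21.5% of all genes. Among those lower was SPP1 (osteopontin) at no more than 20.2 CPM in either PPDO library against 1295 and 879 CPM. With genes over 2 times higher in barcodes outside the duct gate removed, 2 of the 13 were tested, 0 higher and 2 lower.

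**Figure D5:**
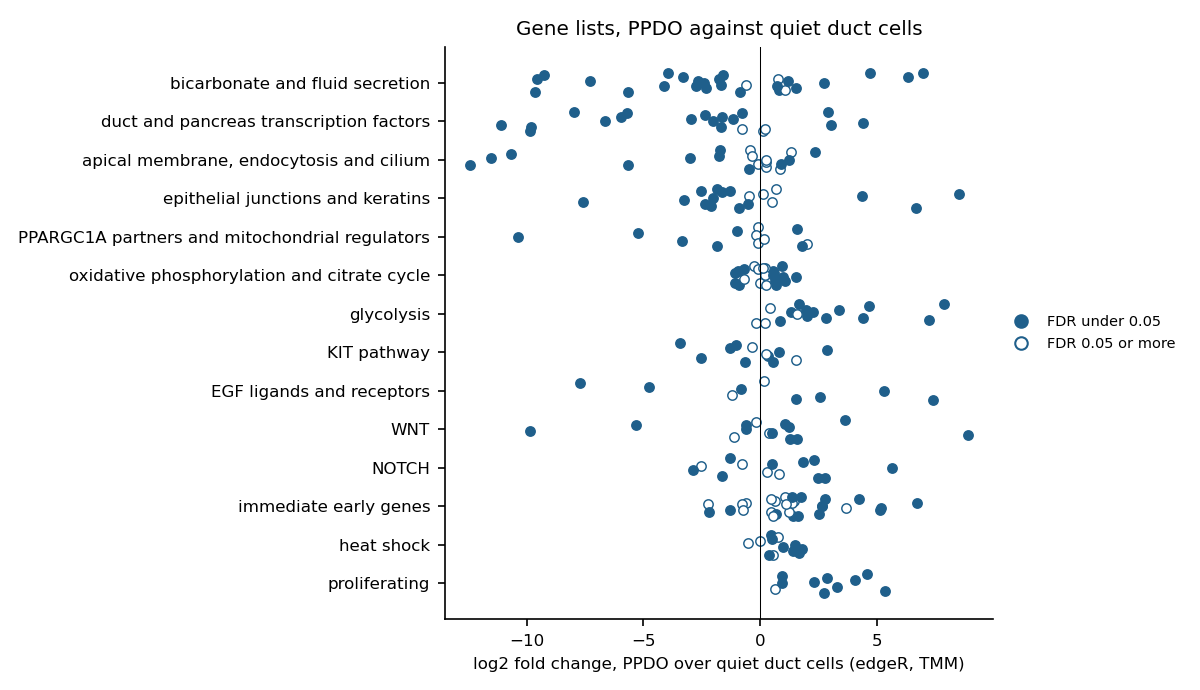
Log2 fold change of PPDO over quiet duct cells (edgeR with TMM factors) for each tested gene of 14 lists, with filled points for an adjusted p under 0.05 and open points otherwise. Secretion genes and transcription factors reach below -9 and lie mostly to the left, and glycolysis and proliferation genes lie mostly to the right.

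Across all genes, the largest differences upwards included keratins of basal epithelia. The 10 genes with the largest fold change upwards were CRABP2, FGFBP1, IFNE, KRT15, KRT5, MMP3, S100A12, SERPINB10, SPRP and TRIM29. For CRABP2, IFNE, SPRP and TRIM29 quiet duct cells had 0 to 2 UMIs in all, so their fitted fold change sets no size. KRT5, a keratin of basal cells, had 5412 and 7614 CPM in PPDO and 6 UMIs in all quiet duct cells (0.110 and 0.297 CPM; log2 fold change 15.33, SE 0.50). KRT15 had 1129 and 1429 CPM and 13 UMIs in quiet duct cells. SPRP had 63.1 and 163 CPM in PPDO and 0 UMIs in quiet duct cells, which allows up to 0.116 CPM over both libraries.

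The 10 genes with the largest fold change downwards were CLPS, DEFB115, FBN2, GCG, GPRIN3, KNG1, PKHD1, PLA2G1B, PRSS2 and RAB17. KNG1 had 0.0365 and 0.0266 CPM in PPDO (log2 fold change -13.92, SE 0.22). DEFB115, a beta defensin, had 846 and 807 CPM in quiet duct cells and 0.0133 and 0.00760 CPM in PPDO (-15.64, SE 0.28). CLPS, PLA2G1B and PRSS2 encode secreted acinar proteins and were also seen in PTPRC barcodes. PRSS2 had 127 and 46.2 CPM there against 161 and 161 CPM in quiet duct cells. Without the 10 quiet duct cells with the most PRSS2 UMIs it was at 142 and 112 CPM. GCG had 0 UMIs in PPDO, and its level in quiet duct cells came mostly from 1 cell.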

How the data were processed

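The authors sequenced 10x Chromium 3' v3.1 libraries and counted UMIs with Cell Ranger 7.1.0 against an in-house pig annotation (Sscrofa11.1 in the submitters' processing notes). The deposited matrices hold raw UMI counts for each feature and barcode, before the study's SoupX correction for free RNA. Deposited barcode and feature names have a unit recorded as other. The 56060 features of each library, 25770 of them extensions of 3' ends, were summed to 30282 genes, of which 16699 had a symbol in the files, 722 took 1 from a gene name table and 12861 had none. The 1331 genes with a shared symbol and the 8 transgene features were left out of the named genes. Close paralogs such as keratins and trypsinogens can exchange UMIs.

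The members and the gene lists were chosen with earlier results of these data known. Listed symbols without a match were NHERF1, CRB3, KRT19, PERM1, COX6C, SLC2A1, JUN, JUND, BTG2, HSPA1A, HSPA1B, CXCL1, CCL20, EPGN, TCF7L1, CCNA2, RRM2, MKI67, CELA3B, PRSS1, UCN3, GZMB and S100B. Counts were summed per library over quiet duct cells and over PPDO barcodes within the same depth limits. The test was edgeR 4.0.16 (TMM, filterByExpr, glmQLFit, glmQLFTest, Benjamini-Hochberg at 0.05), with DESeq2 1.42.0 as an alternative, in R 4.3.3. The SE is the absolute log2 fold change over the root of F. Genes of the rule (SLC4A4, INS, LGR5 and the 5 program genes) were given no test. Contrasts within primary pancreas were given no test. Some genes that these rules name are not reported here. Counts were also drawn with known changes in 100 genes of each size and a common dispersion (0.0717) for all genes. On these edgeR recovered 67% of 4-fold and 100% of 16-fold changes with 7 false calls over 23541 genes. In the data far more genes passed (10851), so this sets no rate of false calls for them. Scrublet ran through Scanpy 1.11.5 (30 components, limits of 0.25 and 0.15).

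Genes were named if they were list members, or led a contrast by rule. For PPDO against quiet these were 10 in each direction with at least 100 CPM and no overlap of libraries. For program against quiet these were 12 in each direction by the smaller ratio with at least 50 CPM. For quiet against other barcodes 15 genes were named, for the library contrast 10 in each direction, both with at least 100 CPM, and by Fano factor 12 with a mean of at least 0.2 UMIs. Same-numbered libraries were checked for pairing by the correlation of their deviations from the group means (r = 0.0704 over 7158 genes, 2 pairs).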

Additional observations from a re-analysis of the deposited data

Results flagged for a closer look

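Features of the transgene, which the comparisons do not use, were counted in quiet duct cells of primary pancreas 2, the library with the INS-eGFP pig under the numbering assumed here. All transgene features together reached 1.54 CPM (26 UMIs) in these cells, above the 0.220 CPM (2 UMIs) of the quiet duct cells of primary pancreas 1. Outside the duct gate they were at 93.1 CPM in primary pancreas 2 and 3.64 CPM in primary pancreas 1. In the PTPRC barcodes of primary pancreas 2 they were at 0.564 CPM, of a sum of only 1774104 UMIs. The part of free RNA in these values was not tested.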

How the results depend on the processing

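Between PPDO and quiet duct cells, 10851 of 22990 genes tested passed (47.2%). The count was 11234 of 28575 (39.3%) with DESeq2 and 10859 of 28575 (38.0%) with no filter on low counts. With sums thinned to the smallest it was 8748 of 15450 (56.6%). Without genes over 2 times higher in barcodes outside the duct gate it was 8296 of 15004 (55.3%). Over cells of at least 5000 UMIs (chosen after seeing the data) it was 10944 of 22943, and with a replicate block 9444 of 22990. The libraries share only a number, and the block's count stayed within 1.5 times. With library totals 3472 genes were higher and 7392 lower. Leaving out 1 library at a time gave 6658 (without PPDO 2) to 10191 calls, with 3616 to 5497 higher and 3042 to 4694 lower, and 6975 without PPDO 1. A lone library is then assumed to vary like the other group. EHF and KRT7, which did not pass, turned from 0.13 and 0.11 to -0.38 and -0.41 with totals and to -0.016 and -0.10 with thinned sums, and over the left-out libraries ranged from -0.0045 to 0.24 and from -0.063 to 0.26. The cause was not tested.

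The quiet share of barcodes within the depth limits was 11.9% in primary pancreas 1 with SLC4A4 at 1% or more, 6.64% and 6.29% in the libraries with fewer than 2 program UMIs, and 12.6% in primary pancreas 2 with INS under 1%. Of duct barcodes it was 60.0% and 97.6% after thinning, 17.2% and 29.3% with fewer than 2 program UMIs, and 86.2% in primary pancreas 2 with the program under 0.03% of UMIs, each by the limit's own construction. Leaving out a library was not run for these shares, which are given per library.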

Other observations

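Some genes better known from other cell types were found in quiet duct cells above the level of PTPRC barcodes, and were chosen after their values were seen. NKX6-1 and PDX1, transcription factors of the beta cell and of the early pancreas, had 34.9 and 49.5 CPM and 47.5 and 66.2 CPM in quiet duct cells, against at most 5.64 CPM in PTPRC barcodes. SOX10, a factor of Schwann cells, had 15.5 and 27.0 CPM against 3.82 and 2.82 CPM. RBPJL, an acinar factor, had 51.1 and 84.1 CPM against 22.8 and 15.2 CPM. CFD, which encodes complement factor D, had 2547 and 2260 CPM against 436 and 706 CPM.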
